A study of Homo sapiens with 20 samples.

Results

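LOVO is an established human colon adenocarcinoma cell line. The comparison described here asks how the open chromatin of LOVO cells carrying a short hairpin RNA against METTL3 (shMETTL3) differed between untreated cells and cells given olaparib. Of the 20 ATAC-seq samples of the series, 4 belong to it: 2 untreated LOVO shMETTL3 samples and 2 LOVO shMETTL3 samples with olaparib. ATAC-seq uses a transposase that inserts sequencing adapters into accessible DNA, so that stretches with many insertions appear as peaks. The other samples are LOVO cells with a control hairpin (shControl) and the matching groups of RKO, another colon adenocarcinoma line. The olaparib dose, the time of exposure, the hairpin sequence and the number of hairpins or clones are, in the sources used here, not given.

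The data are peak lists named for groups, not for samples: 2 of the 10 deposited lists hold this comparison. The untreated list has 16417 intervals and the olaparib list has 51462, in hg38 coordinates. An untreated interval was called kept when at least 1 bp of it lay on an olaparib interval and lost otherwise, and an olaparib interval with no untreated base under it was called gained. The lists differ in form. The untreated list is a merged list of bare intervals, whereas each interval of the olaparib list carries a peak name and a score. All 51462 peak names are labelled with replicate 1, so the intervals and scores may stem from the peak calls of 1 of the 2 olaparib samples, and how the other sample entered the list is not stated. The score comes from the peak caller, and the column it was taken from is not stated, so it is used here only to rank intervals within the olaparib list. There is 1 list per group, so no test between the conditions and no spread between replicates can be given. Brackets hold exact 95% intervals by the Clopper-Pearson method for shares, and these reflect counting error alone. Sequencing depth is unknown from such lists. How much of the difference in length between the lists reflects depth, peak calling or the form of the lists was not tested, and fewer cells with an open site cannot be told apart from a weaker signal per cell.

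METTL3 is the catalytic subunit of the nuclear complex that writes N6-methyladenosine (m6A) on RNA, where it works with METTL14 and the adaptor WTAP. Readers of the YTH family bind the mark, and FTO and ALKBH5 remove it. Olaparib inhibits PARP1 and PARP2, which bind DNA breaks and build chains of ADP-ribose that recruit repair factors. Cells with PARP blocked depend on homologous recombination to repair the breaks that follow, which is why genes of that pathway are described below together with the m6A machinery and the factors that silence LINE1 (L1) retroelements, the subject of the series.

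To show what the kept and the gained promoters look like, the 250 bases before the annotated start are printed for 7 promoters, from RefSeq on GRCh38.p14, the assembly that hg38 names. They are written 5′ to 3′ on the gene's own strand, and capitals mark matches to the motifs searched on both strands. The motifs that occur in them are the GC box (GGGCGG), the CCAAT box (CCAAT), ETS (CCGGAAG), the NRF1 motif (GCATGCG), the E-box (CACGTG), the TATA box (TATAAA) and TEAD (GGAATG). Neighbouring or overlapping matches run together, as the GC box and ETS do in ZNF519, and those of CCAAT and TEAD in FANCM. The NRF1 letters in METTL3 match on both strands at one place. ANKS4B (chr16:21233449-21233698, plus strand) and the promoter shared by ZBED6 and ZC3H11A (chr1:203795373-203795622, plus strand) had the highest scores among gained promoters. ZNF519 (chr18:14132436-14132685, minus strand) and BPGM (chr7:134646603-134646852, plus strand) had the highest among kept ones. METTL3 (chr14:21511341-21511590, minus strand), BARD1 (chr2:214809684-214809933, minus strand) and FANCM (chr14:45135680-45135929, plus strand) are shown for their roles and were chosen after their values were seen.
ANKS4B, gained: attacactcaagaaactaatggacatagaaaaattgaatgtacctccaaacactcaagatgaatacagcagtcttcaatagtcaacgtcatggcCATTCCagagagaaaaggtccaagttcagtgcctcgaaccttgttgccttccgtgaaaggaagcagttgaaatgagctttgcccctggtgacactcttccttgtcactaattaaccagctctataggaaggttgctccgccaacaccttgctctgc
ZBED6 and ZC3H11A, gained: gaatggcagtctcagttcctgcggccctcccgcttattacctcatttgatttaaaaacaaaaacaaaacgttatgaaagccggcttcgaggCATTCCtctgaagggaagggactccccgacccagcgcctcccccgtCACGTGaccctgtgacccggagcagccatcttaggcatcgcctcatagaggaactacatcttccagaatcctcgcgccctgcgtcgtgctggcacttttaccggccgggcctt
ZNF519, kept: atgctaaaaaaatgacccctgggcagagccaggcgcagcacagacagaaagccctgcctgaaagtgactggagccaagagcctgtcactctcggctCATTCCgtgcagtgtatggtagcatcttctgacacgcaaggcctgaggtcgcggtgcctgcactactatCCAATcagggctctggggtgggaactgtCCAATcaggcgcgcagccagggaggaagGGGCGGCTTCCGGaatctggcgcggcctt
BPGM, kept: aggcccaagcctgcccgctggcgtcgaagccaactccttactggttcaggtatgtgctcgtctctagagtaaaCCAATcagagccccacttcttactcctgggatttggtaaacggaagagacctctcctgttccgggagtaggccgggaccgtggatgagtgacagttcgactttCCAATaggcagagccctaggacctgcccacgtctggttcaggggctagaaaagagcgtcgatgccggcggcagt
METTL3, kept: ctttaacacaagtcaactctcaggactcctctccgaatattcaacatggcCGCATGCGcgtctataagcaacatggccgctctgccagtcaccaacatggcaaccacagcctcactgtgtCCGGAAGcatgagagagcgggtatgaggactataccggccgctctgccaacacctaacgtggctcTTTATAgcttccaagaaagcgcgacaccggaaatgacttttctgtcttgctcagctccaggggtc
BARD1, gained: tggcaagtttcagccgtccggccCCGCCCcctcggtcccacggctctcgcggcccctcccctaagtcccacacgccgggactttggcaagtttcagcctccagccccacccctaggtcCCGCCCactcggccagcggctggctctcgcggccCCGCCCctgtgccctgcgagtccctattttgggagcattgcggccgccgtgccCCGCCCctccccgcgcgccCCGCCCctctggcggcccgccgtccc
FANCM, gained: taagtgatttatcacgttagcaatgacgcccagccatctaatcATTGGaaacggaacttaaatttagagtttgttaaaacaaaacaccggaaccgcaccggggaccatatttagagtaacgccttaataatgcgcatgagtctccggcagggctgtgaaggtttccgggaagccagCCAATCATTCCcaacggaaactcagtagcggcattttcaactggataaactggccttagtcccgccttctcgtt

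Nearly the whole untreated pattern was present in the full olaparib list, which added more than it shared. Of the 16417 untreated intervals, 16287 were kept (99.2%, 99.1 to 99.3) and 130 were lost. Of the 51462 olaparib intervals, 16963 lay on an untreated one and 34499 were gained (67.0%, 66.6 to 67.4). The olaparib list was 3.13 times as long as the untreated list and covered 16.8 Mb against 8.52 Mb, 1.98 times as much. Kept sites were shared over most of their length: a kept untreated interval had a median of 92.2% of its bases under olaparib intervals, and none was shared by less than 10 bp. A few kept intervals, 673 (4.13%), met 2 or more olaparib intervals. The shared bases came to 7.07 Mb, which is 82.9% of the untreated list and 42.0% of the olaparib list. Cut to its 16417 highest-scoring intervals, the olaparib list kept 69.7% of the untreated ones, and 29.4% of its intervals were gained.

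**Figure D1:**
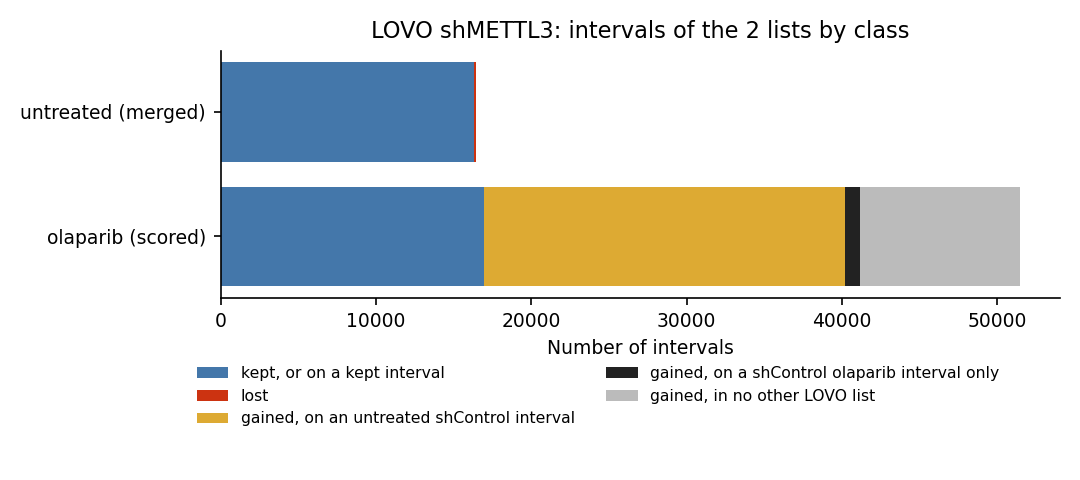
Number of intervals (horizontal axis) in the untreated and the olaparib list of LOVO shMETTL3, coloured by class. The red sliver of 130 lost intervals is barely visible beside the 34499 gained ones, of which 23247 (yellow) lie on an untreated shControl interval and 10291 (grey) in no other LOVO list.

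In control-hairpin cells the drug comparison ran the other way in size. The scored shControl lists held 41431 intervals without and 32192 with olaparib, a ratio of 0.777, and 71.8% of the untreated intervals were kept while 9.19% of the olaparib intervals were gained. Against the merged shControl list of 33474 intervals, which sets the same 2 forms side by side as in shMETTL3 cells, 77.0% were kept and 16.6% gained. The kept share in shMETTL3 cells was thus 27.4 percentage points above that in shControl cells with the scored reference and 22.2 points above it with the merged reference. The olaparib list was 3.13 times as long as its reference in shMETTL3 cells, against 0.777 and 0.962 times in shControl cells. Cut by score to as many intervals as the untreated list, the shMETTL3 olaparib list kept 69.7%, below both shControl shares. How much list length adds to the difference was not tested. Both forms exist for untreated shControl cells, where 87.8% of the merged intervals lay on a scored one and 23.9% of the scored intervals lay on no merged one. Which of the 4 untreated shControl samples, 2 of them labelled batch 2, entered either list is not stated, so form and samples cannot be told apart in this pair. RKO shMETTL3 cells, compared across the same 2 forms, went from 6916 to 35455 intervals, with 97.2% kept, 194 lost and 28804 gained (81.2%).

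Gained intervals were narrower and lower in score than the shared ones and lay less often at gene ends. Their median width was 213 bp and their median score 7.55, against 447 bp and 13.8 for the olaparib intervals on untreated ones. Only 18.2% (17.8 to 18.6) of the gained intervals lay within 1000 bp of either end of a protein-coding gene as annotated, called a gene end here, against 38.0% (37.3 to 38.8) of those on untreated intervals. A further 39.5% lay elsewhere in a gene, against 30.1% of those on untreated intervals, and 42.3% lay between genes, against 31.9%. They were not the flanks of kept sites. The median distance from a gained interval to the nearest untreated one was 33304 bp, and only 4.74% lay within 1000 bp of one, with 22.3% beyond 100000 bp. The gained share ran from 62.7% of the olaparib intervals on chromosome 7 to 76.8% on chromosome X among the autosomes and X.

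The score of an olaparib interval tracked whether the site had been found in untreated cells. In the lowest decile of the olaparib list by score, 2.76% of the intervals lay on an untreated one, and in the highest 89.7% did. At the same score, gene ends were more often shared than other sites: in decile 6, 47.8% of the gene-end intervals lay on an untreated one against 22.0% of the others, and in the highest decile 96.7% against 86.2%. The highest decile still held 532 gained intervals.

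**Figure D2:**
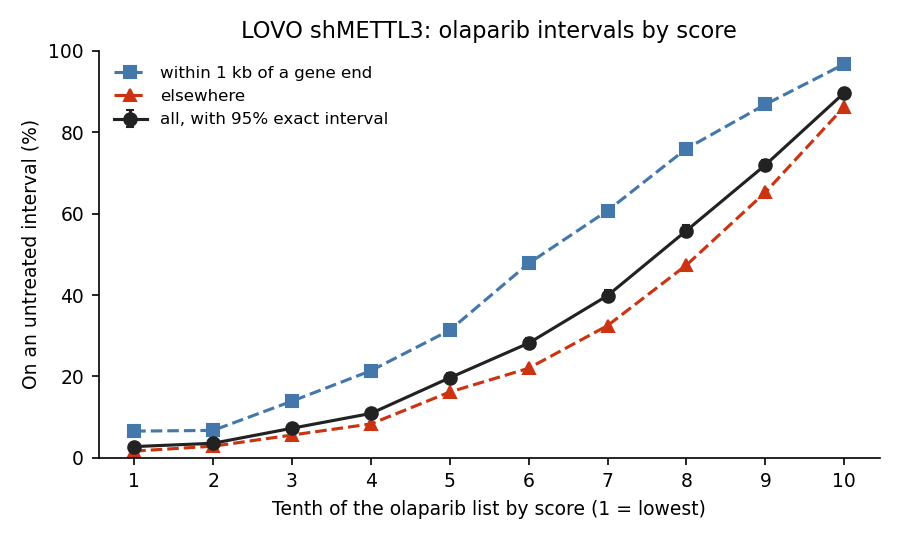
Share of olaparib intervals that lie on an untreated interval (vertical axis, percent) in each decile of the olaparib list by score (horizontal axis, 1 is the lowest), for all intervals with 95% exact intervals (black), those within 1000 bp of a gene end (blue squares) and the others (red triangles). The share climbs from 2.76% to 89.7%, and the gene-end line lies above the line for other sites in each decile.

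With both untreated shControl lists pooled, most gained sites were sites that control-hairpin cells also had open without drug. With the merged list alone, the form of the untreated shMETTL3 list, the share was 48.3%, and with the scored list alone 58.7%. The pooled shares follow. Of the 34499 gained intervals, 23247 (67.4%, 66.9 to 67.9) lay on an interval of an untreated shControl list, 961 (2.79%) lay on a shControl olaparib interval only, and 10291 (29.8%) were in no other LOVO list. For comparison, 99.3% of the olaparib intervals on untreated shMETTL3 ones lay on an untreated shControl interval. The gained intervals also found in untreated shControl cells had a median width of 249 bp, a median score of 8.40 and 22.2% at gene ends. Those in no other LOVO list were the faintest, at 161 bp, a score of 5.98 and 8.95% at gene ends, and 18.4% of them lay on an RKO shMETTL3 olaparib interval. The share of gained intervals on an untreated shControl interval rose with the score, from 39.7% in the lowest decile to 95.5% in the highest. Of the gained intervals, 42.5% lay on a shControl olaparib interval.

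The gained intervals with the highest scores lay mainly away from gene ends, as did gained intervals at large, of which 18.2% lay at gene ends. The first, at chr9:76571738-76571988 (score 28.0), was 39513 bp from PRUNE2 and was present in both untreated shControl lists but not in shControl cells with olaparib. The same held for an interval at chr1:209884771-209884984 (27.9), 27312 bp from UTP25, and for one at chr6:148578297-148578588 (25.6), 26398 bp from SASH1, a scaffold protein gene. Others of the first 10 lay inside EPS8, which encodes an actin regulator, and SYN3, at the end of ETNK1, an ethanolamine kinase gene, near CHCHD4 and at the start of ANKS4B. A pair among them was in no other LOVO list: chr4:179457708-179457844 (25.9), in a gene desert 1989837 bp from TENM3, and chr7:107318614-107318853 (25.4), inside COG5, a gene of the Golgi tethering complex. Next among the intervals in no other LOVO list came one within PARP4 (21.0), a member of the PARP family, at chr13:24503414-24503588. Another lay within HMGA2 (18.7), which encodes an architectural chromatin protein, and was present in each RKO list except untreated shMETTL3.

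The 130 lost intervals were small and scattered. Their median width was 296.5 bp against 482 bp for kept ones, and 10.8% (6.01 to 17.4) lay at gene ends, with 44.6% in gene bodies and 44.6% between genes. Of these 130, 94 (72.3%) lay on an untreated shControl interval, 49 (37.7%) on a shControl olaparib interval and 33 on none of the other LOVO lists. Both shares were lower than for the kept intervals, of which 99.4% lay on an untreated shControl interval and 95.1% on a shControl olaparib interval. Some of the sites missing from the olaparib list were close to sites in it: 21 lay within 1000 bp of an olaparib interval, and the median distance was 13336.5 bp. The widest was at chr2:158723697-158724357 (661 bp), 42598 bp from PKP4, which encodes a junctional plakophilin. A 620 bp interval at the start of FAM234B (chr12:13044288-13044907) was present in each of the other LOVO lists and in each RKO list except untreated shMETTL3. Other wide lost intervals lay inside ATP2B1, a plasma membrane calcium pump gene, inside TNIP3 and at an end of DISC1.

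At the level of genes, 7175 of 20037 protein-coding genes had a gene-end interval in untreated cells and 11713 had one with olaparib. Of the 12862 genes without one in untreated cells, 4558 gained one, which is 35.4% of those tested. Of the 7175 with one, 20 lost it (0.279%). This balance turned when the olaparib list was reduced to its 16417 highest-scoring intervals, as many as the untreated list has: 695 genes then gained and 2075 lost a gene-end interval. Shortening only the olaparib list adds losses by construction. In shControl cells, with the scored lists, 3.49% of the genes without an untreated interval gained one (309) and 7.47% of those with one lost it (836). Against the merged shControl list, the pair whose forms match those in shMETTL3 cells, the balance turned to 897 gained (9.23%) and 557 lost (5.4%). In RKO shMETTL3 cells the shares were 40.4% gained and 0.394% lost. Between the scored and merged lists of untreated shControl cells, which may differ in form and in samples, 12.2% of genes without a merged interval had a scored one and 3.09% of genes with a merged interval had no scored one.

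Most of the gained genes were gained at their start. Among the 3636 gained genes whose strand is known, 3387 (93.2%) had the olaparib interval at the annotated start. Of all 4558, 3987 (87.5%) had a gene-end interval in an untreated shControl list, 125 in shControl cells with olaparib only and 446 (9.78%) in no other LOVO list. Median scores were 13.9 for the kept genes, 8.20 for the gained genes and 5.55 for the 446. RKO shMETTL3 cells gained 6040 genes, 40.4% of the genes without an untreated RKO interval. In both lines 2643 genes were gained, which is 58.0% of the LOVO genes and 43.8% of the RKO genes. Of the LOVO gained genes, 859 already had one in untreated RKO shMETTL3 cells and could not be gained there. Each line lost only 20 genes, so the absence of a gene lost in both says little.

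The genes of the target and the drug were open in both conditions. The METTL3 promoter interval was 516 bp long in untreated cells (chr14:21511075-21511590) and 572 bp with olaparib (chr14:21511033-21511604), where its score of 20.3 was above that of 96.2% of the list. The hairpin acts on the transcript, so this interval does not check the knockdown. PARP1 had an interval of 324 bp untreated and of 680 bp with olaparib, with a score of 8.29, above 42.4% of the list. PARP2 had intervals of 941 and 910 bp, with a score of 22.1, above 98.0%. All 3 genes also had a promoter interval in each shControl list.

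Homologous recombination and Fanconi anaemia genes, which repair double-strand breaks and interstrand crosslinks, were largely open before treatment and nearly complete after it. Of 38 members, 25 had a gene-end interval in both lists, among them BRCA1, BRCA2 and PALB2. Only the outer annotated ends were used. For BRCA1 the untreated interval lay at chr17:43171022-43171337, beyond the end at 43170327, and whether it marks the BRCA1 promoter was not tested. Of the other 13 members, 12 gained one, a share of 92.3% (64.0 to 99.8) against 35.4% of all genes. Among genes with a gene-end interval in the scored untreated shControl list but not in untreated shMETTL3 cells, 93.9% had one with olaparib. With the merged shControl list that share was 94.4%. BARD1, the partner of BRCA1, gained a 585 bp promoter interval with a score of 15.4. RAD51AP1, which stimulates strand exchange, gained one of 726 bp (15.9), and RAD54L, a motor protein of the same step, one of 1083 bp (10.3). RBBP8, which promotes end resection, gained a narrower one of 213 bp (5.94), and RAD51B and the nuclease-helicase DNA2 had scores of 6.34 and 6.71. All of these had a gene-end interval in an untreated shControl list. FANCM, a translocase of stalled forks, was the exception, with a 189 bp interval of score 4.15 in no other LOVO list. MRE11, the nuclease that opens resection, had none in either list.

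The damage checkpoint list behaved alike in its counts. ATM, ATR, CHEK1 and CHEK2 were among 15 of 21 members with an interval in both lists, and the other 6 of 6 gained one. Of all genes without an untreated gene-end interval, 35.4% gained one. ATRIP, the partner of ATR, had a score of 11.3, CDC25C, a phosphatase that starts mitosis, 8.93 and TOPBP1, an activator of ATR, 8.28. PKMYT1 and RAD9A, part of the checkpoint clamp, had 6.08 and 4.28, and CDC25B was gained too. Among 20 genes of non-homologous end joining and the 53BP1 axis, 13 were kept, and 6 of 7 were gained, among them LIG4, APTX, SHLD1, PAXX and XRCC5. The ligase gene LIG4 scored 8.76. The XRCC5 interval was 111 bp long (7.07) and was in no other LOVO list. MAD2L2, a member of the shieldin complex that limits resection, stayed without a gene-end interval.

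PARP enzymes and base excision repair genes were mostly open throughout, with 25 of 32 kept. Of the other 7, 5 gained an interval, against 35.4% of all genes: PARP14, TNKS2, HPF1, LIG3 and NEIL3. HPF1, the cofactor that directs PARP1 and PARP2 to serine, had a 328 bp interval with a score of 6.57, and the single-strand break ligase gene LIG3 one of 599 bp (7.21). TNKS2, a tankyrase gene, had the highest score of the 5, at 10.3. PARG, whose product removes ADP-ribose chains, and the glycosylase gene NEIL1 had no gene-end interval in either list. In mismatch repair, 9 of 10 members were kept, and RFC1, the 1 member without an untreated interval, gained one (10.9).

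The m6A machinery had 16 of 25 members with an interval in both lists, including METTL14, FTO, ALKBH5 and the 5 YTH readers. Of the other 9, 8 gained one (88.9%, 51.8 to 99.7), against 35.4% of all genes. WTAP, the adaptor of METTL3, gained a 1001 bp interval with a score of 10.1. IGF2BP2, a reader of the mark, had 12.8 at an interval near its far end, and the methyltransferase genes ZCCHC4, PCIF1 and METTL5 had 9.52, 8.41 and 5.51. IGF2BP3 had 5.57. RBMX and HNRNPA2B1, named after their values were seen, were also gained. IGF2BP1 stayed without a gene-end interval. Each of the 8 had a gene-end interval in an untreated shControl list. Of all genes open there but not in untreated shMETTL3 cells, 93.9% (scored list) or 94.4% (merged list) had one with olaparib.

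Of 35 genes that restrain L1 and other retroelements, 19 were kept, among them TRIM28, MORC2 and the HUSH genes TASOR, MPHOSPH8 and PPHLN1. Of the other 16, 14 gained an interval (87.5%, 61.7 to 98.4), against 35.4% of all genes. All 14 were open in an untreated shControl list. ATF7IP scored 15.7 and its partner SETDB1, the H3K9 methyltransferase, 12.5. The maintenance DNA methyltransferase gene DNMT1 had a 658 bp interval (11.9), TET3 had 11.5 and RNASEH2B 11.3, and DNMT3B had 212 bp (6.78). CBX3 and HNRNPA2B1 share 1 interval of 932 bp (5.89), since their starts face each other, so these 2 gains, of which CBX3 was named after its values were seen, are 1 site. UHRF1 and TET1 had no gene-end interval in either list. The list of chromatin remodellers and histone modifiers had 14 of 19 gained, with SMARCA4, SMARCB1, SMARCE1, ARID1A, ARID2 and CHD4 between 5.01 and 9.41. ARID1B, CHD3, SUZ12 and KMT2C were without a gene-end interval.

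Stress and growth programmes followed. Of 28 p53 targets and pathway genes, 16 were kept, with MDM2 among them, and 9 of 12 were gained, against 35.4% of all genes. With annotated starts only, where members of unknown strand cannot count, 5 of 14 were gained. BAX, which permeabilises mitochondria, had a 747 bp interval (12.0), and PMAIP1, ZMAT3 and TP53INP1 had scores of 7.62, 7.63 and 10.9. TNFRSF10B had 5.44, as had BBC3 at an interval near its far end. CDKN1A, FAS and AEN had no gene-end interval in either list. Of the genes of DNA replication and the cell cycle, 31 of 40 were kept and 7 of 9 gained, with the checkpoint kinase gene BUB1 at 15.7 and CCNA2, the cyclin A gene, at 13.8. The AP-1 and immediate early list had 10 of 13 gained, at low scores between 4.61 and 9.01, with FOS at 4.87 and JUND at 4.77. ATF3, EGR3 and DUSP5 had no gene-end interval in either list.

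Wnt genes, active in most colon tumours through loss of APC, were mostly without a gene-end interval in untreated cells, with 6 of 24 open. Of the other 18, 12 gained one (66.7%), against 35.4% of all genes. LGR5, a stem cell receptor gene, gained a 343 bp interval (8.79), AXIN2, a feedback inhibitor gene, one of 580 bp (6.65), and NKD1, ZNRF3, SP5 and LEF1 had 7.73, 9.05, 8.67 and 6.09. ASCL2, TCF7, EPHB2 and NOTUM stayed without one. TNFRSF19 was the 1 gained member in no other LOVO list (6.60), and was named after its values were seen.

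Markers of cell identity were set beside the label. Of 30 epithelial genes, 8 had a gene-end interval in both lists, among them CDX2, HNF4A, EPCAM, KRT8 and KRT19, named after their values were seen. Of all 20037 genes, 7175 had one untreated, so the epithelial list does not check the label in untreated cells. Of the other 22 epithelial genes, 13 gained one (59.1%, 36.4 to 79.3), against 35.4% of all genes. CDX1, HNF4G, GATA6, KLF4 and KLF5 had scores between 5.46 and 8.86. CDX1, KLF5, KRT20 and A1CF were in no other LOVO list, and the last 2 were named after their values were seen. EHF, CDH17 and CEACAM5 had no gene-end interval in either list. Most markers of other lineages had no gene-end interval in either list. Of the mesenchymal genes, 2 were open untreated and 7 of 22 with olaparib, with 5 of 20 gained. Of the leukocyte genes, 2 and 6 of 16 were open, with 4 of 14 gained, and of the neuronal genes 1 and 4 of 16, with 3 of 15 gained. Counting intervals of the gained shares were 8.66 to 49.1% (mesenchymal), 8.39 to 58.1% (leukocyte) and 4.33 to 48.1% (neuronal). Each includes the 35.4% of all genes. PTPRC and CD4, and the neuronal genes RBFOX3, SYN1 and NEUROD1, had no gene-end interval in either list. CD3D and LYZ gained short intervals of 189 and 218 bp in no other LOVO list.

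The interferon and nucleic acid sensing list held the 1 list member lost. IFIT3, an interferon-induced gene, had a 445 bp interval at its start in untreated cells (chr10:89327944-89328388) and none with olaparib. Its neighbours in the IFIT cluster went the other way: IFIT1 gained a 189 bp interval (9.35), IFIT2 one of 237 bp (7.75) and IFIT5 one of 637 bp (6.36). IFIT3 was present in the scored untreated shControl list and in shControl cells with olaparib, and RKO shMETTL3 cells gained it. Of 40 members, 21 were kept, including CGAS and STING1, and 11 of 18 were gained (61.1%, 35.7 to 82.7), against 35.4% of all genes. IRF7 (7.41) and MAVS were among the gained. TLR3, ISG20, IFI27 and IFI44L stayed without a gene-end interval.

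Genes with constant expression were gained as well. Of 20 housekeeping genes, 13 were kept and the other 7 of 7 were gained, among them GAPDH with a 1496 bp interval (4.81), ACTB with 789 bp (4.17) and B2M with 474 bp (14.9). All 7 had an interval in an untreated shControl list. Of the ABC drug transporter genes, 3 of 8 were gained (37.5%, 8.52 to 75.5): ABCC2, ABCC3 and ABCC4. ABCB1, whose product exports olaparib, had no gene-end interval in either list. The members of the lists are not a random set of genes and no list was tested, so the shares are descriptions to be read beside the 35.4% of all genes and the housekeeping list. Most gained members were open in untreated shControl cells. Of all genes open there but not in untreated shMETTL3 cells, 93.9% (scored list) or 94.4% (merged list) had an olaparib interval. When only olaparib intervals above the median score were used, 47 of the 150 gained list members remained gained, and 18 remained with equal list lengths.

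**Figure D3:**
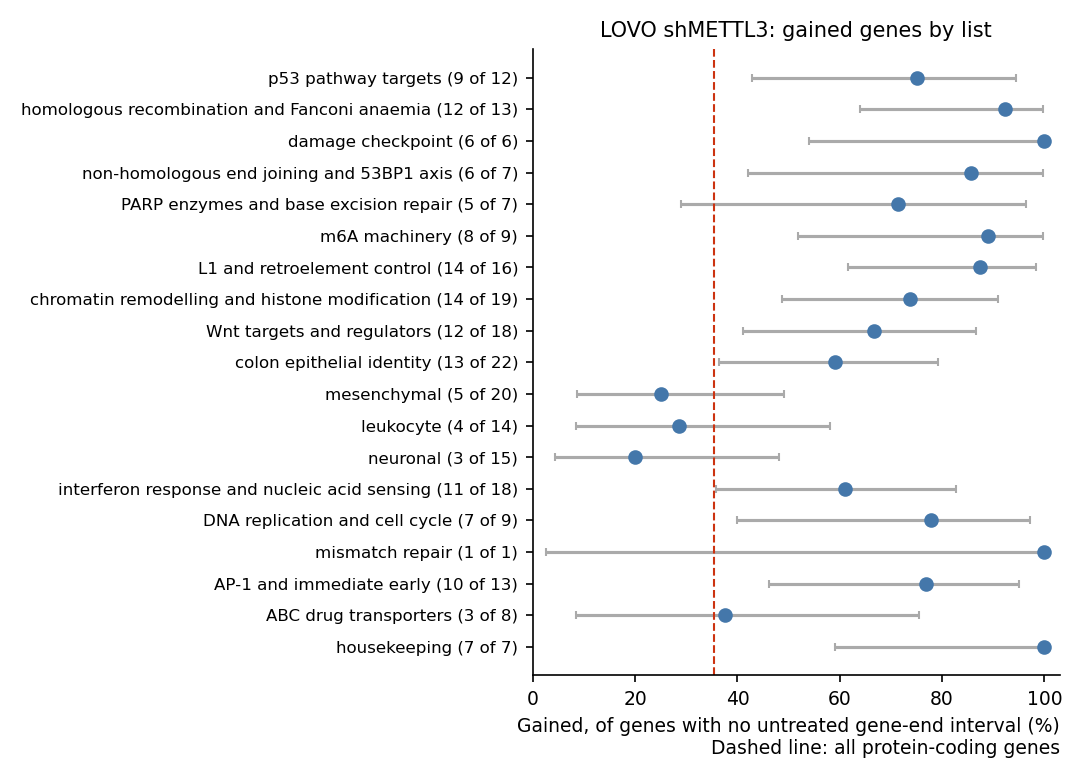
Share of genes without an untreated gene-end interval that had one with olaparib (horizontal axis, percent) for each of the 19 gene lists, with 95% exact intervals for counting error and, in brackets, gained genes of genes at risk. The dashed line marks 35.4%, the value of all protein-coding genes; the housekeeping list stands at 7 of 7 and the neuronal list at 3 of 15.

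Of the 20 genes that lost their gene-end interval, 13 still had the interval itself in the olaparib list, where a narrower partner ended just outside the 1000 bp window. For the remaining 7 the interval was lost: BATF3, an AP-1 family transcription factor gene, DAGLA, FAM234B, IFIT3, KCNB2, RAET1E, which encodes an NKG2D ligand, and RHOBTB1. These 7 were named because the interval itself was lost, after the values were seen. Of the 4558 gained genes, 8 rested on such edges alone.

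The gained gene ends with the highest score belonged to ANKS4B (24.7), which encodes a protein of the epithelial brush border, the pair ZBED6 and ZC3H11A with their shared promoter (22.1), and PPCDC (21.6), an enzyme gene of coenzyme A synthesis. SCEL (21.3), TLDC2 (21.1) and CRBN (21.0), a ubiquitin ligase substrate receptor gene, followed. Among the 446 genes in no other LOVO list, HSD17B7 had the highest score (18.5) with an interval of 121 bp at chr1:162790440-162790560, followed by BCAR1 (13.2), an adhesion docking protein gene, ASPA (12.8) and UGT2A3 (12.5). ARHGAP11B (11.9) is a partial duplicate of ARHGAP11A, so reads could be shared between the copies and its assignment is uncertain.

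Some loci gained many intervals at once. With each interval assigned to the nearest gene end within 50000 bp, 11793 genes (58.9%) had more with olaparib and 126 had fewer. LMNA, which encodes lamins A and C, went from 0 to 13 intervals, 11 of them on an untreated shControl interval, with scores up to 12.8. AXIN2 went from 2 to 14, IL20RA, an interleukin receptor gene, from 4 to 19, and GPRC5A from 3 to 16. TSPAN8, a tetraspanin gene, went from 2 to 14, FAM81A from 2 to 14, PRAG1 from 5 to 17 and ZNF608 from 5 to 17. The largest rise was at LOC124905135 on chromosome 22, from 4 to 24, with low scores (median 4.01 of its gained intervals). shControl cells had many of these sites: LMNA had 11 intervals in the scored untreated shControl list and 10 with olaparib, and AXIN2 9 and 8. The merged untreated shControl list had fewer, 4 intervals at LMNA and 5 at AXIN2. Untreated shMETTL3 cells have a merged list only, and the part of the form in these increases was not tested. Decreases never exceeded 1 interval. The first 10 by covered bases, from ARMC10 and MAP2K1 to ZNF768 and ACTMAP, all had that interval kept but assigned to another gene end, as had 110 of the 126 genes with fewer.

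**Figure D4:**
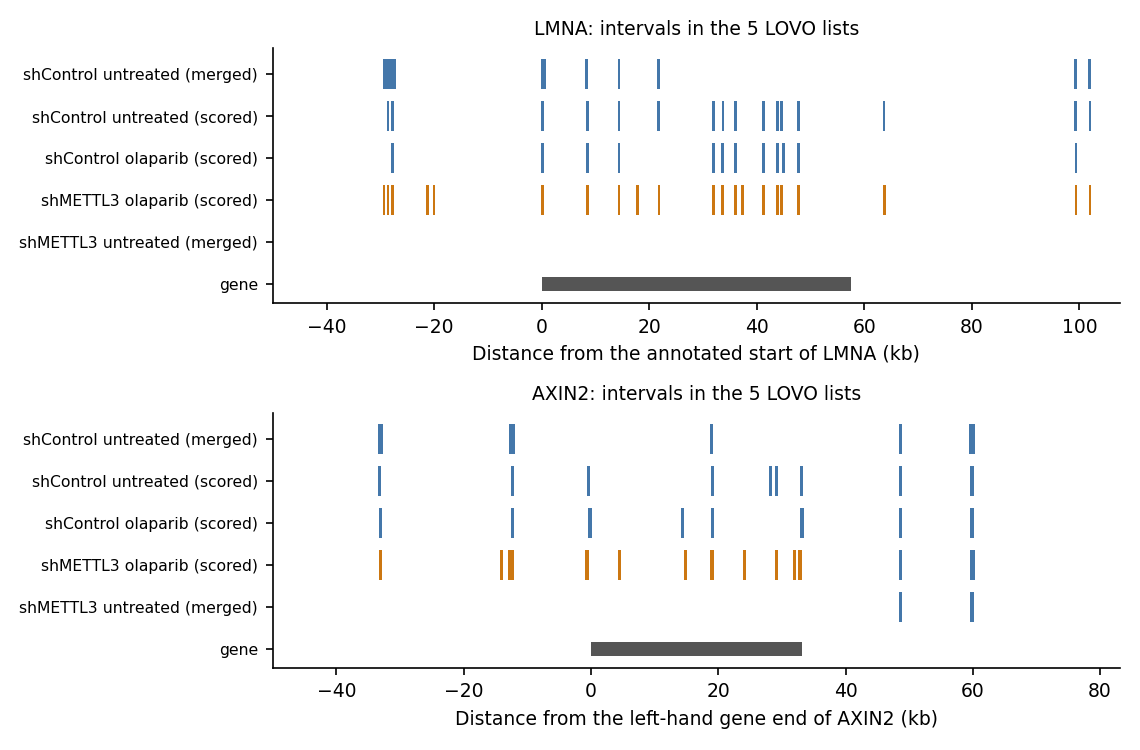
Positions of the intervals of the 5 LOVO lists around LMNA and AXIN2 (horizontal axis, distance in kb from the annotated start of LMNA or from the left-hand end of AXIN2, whose strand is not in the promoter table), with the gene drawn as a bar; orange marks are olaparib intervals of shMETTL3 cells gained over untreated, and blue marks in that row lie on an untreated interval. The untreated shMETTL3 row is empty at LMNA, while the shControl rows and the olaparib row hold marks at many of the same places.

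Promoter letters were compared between classes for the 15843 genes with a RefSeq promoter, of which 5344 had the 250 bases touched by an interval in both lists, 3081 with olaparib only, 65 in untreated cells only and 7353 in neither. Kept and gained promoters were alike in composition, with a median GC content of 65.2% and 66.8% and 22 CpG each, against 56.4% and 7 CpG in neither list. The GC box, the site of Sp factors, was in 73.3% of kept and 71.1% of gained promoters and in 56.0% of all. They differed in other letters. The CCAAT box, the core of the NF-Y site, was in 43.6% (42.2 to 44.9) of kept, 28.8% (27.2 to 30.5) of gained and 34.5% of all promoters. ETS letters were in 21.6% of kept, 13.8% of gained, 3.86% of promoters in neither list and 11.8% of all. The TATA box went the other way, in 3.41% of kept, 6.95% of gained, 14.4% of those in neither list and 9.23% of all. The E-box was in 7.84% of all promoters, the NRF1 motif in 4.51% and TEAD in 10.1%. A match describes letters in the window and is not a measured binding site.

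Because kept promoters had higher scores, the shares were also set out within 3 classes of the olaparib score, which hold unlike numbers of promoters. In the highest class the CCAAT box was in 48.7% of 4018 kept and 32.2% of 574 gained promoters, in the middle class in 29.3% of 1192 and 28.7% of 1399, and in the lowest in 16.4% of 134 kept and 27.3% of 1108 gained ones. The counting intervals of kept and gained promoters were apart in the highest class, with the kept share higher, and overlapped in the middle one. In the lowest class they were apart the other way, at 10.6 to 23.8% for kept and 24.7 to 30.0% for gained promoters. The classes did not level the score fully: in the highest class the median was 15.7 for kept and 13.0 for gained promoters. ETS letters were in 22.5% of kept and 19.7% of gained promoters in the highest class, in 19.0% and 13.2% in the middle and in 16.4% and 11.6% in the lowest. The counting intervals were apart in the middle class and overlapped in the others. Among the printed sequences, ZNF519 and BPGM, both kept, hold 2 CCAAT boxes each. METTL3, also kept, holds none, as do ANKS4B and the ZBED6 promoter, both gained. FANCM, gained at a low score, holds 2 CCAAT boxes, and BARD1 holds 5 GC boxes.

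**Figure D5:**
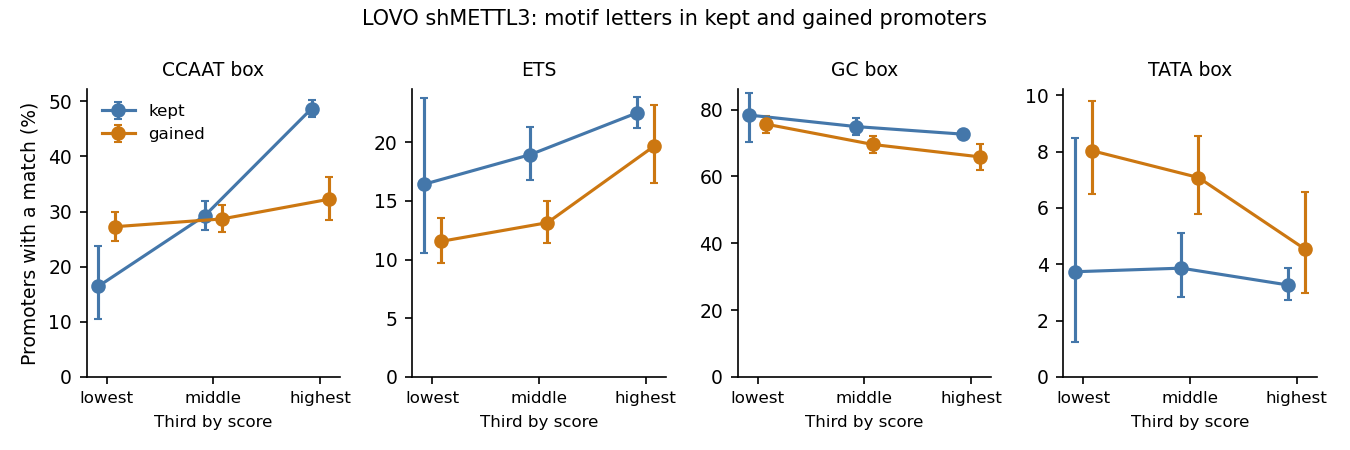
Share of promoters with at least 1 match (vertical axes, percent) to 4 motifs among kept (blue) and gained (orange) promoters, in 3 classes of the olaparib score (horizontal axes), with 95% exact intervals for counting error. In the CCAAT panel the kept line climbs from 16.4% to 48.7% while the gained line stays between 27.3% and 32.2%.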

How the data were processed

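Libraries were made from LOVO and RKO cells with a transposase-based kit, per the labels. The submitters' processing notes name, without roles, DiffBind 3.0.15, MACS2 2.2.7.1, Bowtie2 2.4.2, Trim Galore 0.6.6 and the build hg38. Read shifting, filtering and the combining of samples within a group are steps not described in these sources. The authors deposited intervals without values for untreated shMETTL3 cells and intervals with a peak score for olaparib, so depth per sample is unknown. Overlaps were computed with Python 3.11.15, numpy 2.4.6 and pandas 2.3.3, tested on simulated data and checked with bedtools 2.31.1. Exact intervals came from scipy 1.17.1.

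Genes (20037 protein-coding) came from a RefSeq table on GRCh38. A gene counted as open when an interval touched 1000 bp either side of either gene end. Only the outer ends of each annotated gene were used. Intervals at starts inside a gene were not counted, so a gene called without an interval may have one there. Strand and promoter sequence were matched for 15843. All 487 entries of the 19 gene lists matched, and 10 motifs were searched.

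Members and lists were chosen with earlier results of these data known. Named were METTL3, PARP1 and PARP2, per list up to 6 gained, 6 lost and 4 unopened members in list order, the 10 largest increases and decreases in assigned intervals, the 10 gained intervals of highest score, the 10 widest lost ones, the 10 gained genes of highest score in no other LOVO list, and the gained promoters of highest score. Kept members and the highest-scoring kept promoters, gained genes over all lists and intervals in no other LOVO list were named after their values were seen. Some genes that the rule names are left out here. Alternatives changed the overlap, score, width, window and reference list.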

Additional observations from a re-analysis of the deposited data

How the results depend on the processing

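The kept share of 99.2% became 93.0% when 50% of the interval had to be covered, 87.8% with olaparib intervals above the median score, 69.7% with the lists equal in number and 96.9% without intervals under 200 bp. The gained share of 67.0% became 68.1%, 42.9%, 29.4% and 55.8% under the same settings. Merging olaparib intervals within 100 bp changed nothing, since the smallest gap in that list is 125 bp. Merging within 500 bp, chosen after seeing the data, gave 66.4% gained and left the kept share and the gene counts as they were. The 4558 gained genes became 1703 above the median score and 695 at equal number, and were 4270 and 4898 with windows of 500 and 2000 bp and 3513 at annotated starts only. The 20 lost genes became 715 and 2075 by score and number, where a shorter olaparib list adds losses by construction, 13 with windows of 2000 bp and 9 at starts only. With windows of 500 bp 28 genes were lost, 4 of them among the 20.

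The share of gained intervals on an untreated shControl interval (67.4%) was 64.9% at 50% overlap, 86.3% above the median score, 48.3% with the merged list only and 58.7% with the scored list only. The share on a shControl olaparib interval (42.5%) was 37.8% and 60.2% under the first 2 of these. The kept difference between shMETTL3 and shControl cells (27.4 points) was 22.2 with the merged reference and 24.9 at 50% overlap. It was not computed at equal number, where the shMETTL3 share of 69.7% lay below the shControl shares of 71.8% and 77.0%. The gained difference, LOVO minus RKO (-14.2 points), was -22.4 at 50% overlap and -27.5 above the median score in each line. Apart from the score and number settings, the cause of these shifts was not tested. Gained counts of the 19 gene lists moved by over 1.5 times in 19 lists at equal number and in 15 above the median score, and in 6 at starts only, 2 with windows of 2000 bp and 0 with windows of 500 bp.

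No paired analysis was possible because the lists are per group rather than per sample, and no result comes from a test. Leaving out a replicate was not possible either. Depth is unknown, so an absent interval does not show closed chromatin.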
